A study of Mus musculus with 10 samples.

Results

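The 38 genes described here encode the enzymes that make, recycle and use glutathione and thioredoxin, the superoxide dismutases and catalase, and the NRF2 pathway that controls many of them in mice. They were chosen by name, as the rows of the count table whose Ensembl identifier carries 1 of 38 listed symbols, and all 38 were found among the 22165 identifiers of the table. Of these 38 genes, 34 had enough reads to be tested, 2 had no read in any library and 2 had only a few.

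Macrophages from the peritoneal cavity of C57BL/6 mice were sorted with antibodies to CD64, ICAM-2 and CD115, and their polyadenylated RNA was sequenced. The knockout mice carried floxed alleles of the targeted gene together with LysM-Cre, a Cre recombinase expressed from the Lyz2 locus of myeloid cells, so deletion is expected in neutrophils and monocytes as well as macrophages. The mice called wild type carried the floxed alleles without Cre, and each comparison of genotypes therefore also compares mice with and without the recombinase. Cells were collected 36 hours after an intraperitoneal injection, and the groups were knockout mice given IL-4 complexed to an antibody (3 libraries), wild-type mice given the same (3 libraries), knockout mice given saline (2 libraries) and wild-type mice given saline (2 libraries). The saline groups are called basal. Age is not given in the sources used here, nor which exon was floxed. Since the labels leave it unsaid if each replicate came from its own mouse, p-values cover the spread among these libraries only, which may be technical.

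Glutathione is a tripeptide of glutamate, cysteine and glycine. Peroxidases and transferases spend glutathione to remove peroxides and reactive compounds, while thioredoxin and its reductase feed electrons to the peroxiredoxins, and both systems draw on NADPH. NRF2, encoded by Nfe2l2, is held down by KEAP1 and, when released, binds antioxidant response elements near genes such as Gclm, Txnrd1, Srxn1 and Nqo1, where BACH1 competes as a repressor. IL-4 acts through STAT6 and turns resident macrophages towards alternative activation.

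Counted reads ranged from 8762403 to 15024073 per library. Levels are given in CPM, which are read counts per library brought to a common library size. Each adjusted p below comes from edgeR's quasi-likelihood test with Benjamini-Hochberg adjustment unless DESeq2 is named. Markers of large peritoneal macrophages summed to 17034 to 27242 CPM in all libraries, and Adgre1, Icam2 and Gata6 were present in each. Prg4, at 3090 to 12400 CPM, and F5, at 2490 to 5680 CPM, were a large part of these sums. Genes of that list differed between groups at an adjusted p under 0.05. In knockout 2 of 19 were higher and 2 lower after IL-4, and 2 higher and 1 lower under basal conditions. With IL-4, 2 rose and 6 fell in the average over genotypes. Lyz1 stood at 1890 to 3110 CPM in knockout basal and 284 to 380 CPM in wild-type basal libraries. The summed markers of small macrophages, monocytes and dendritic cells stood at 7879 to 10443 CPM in knockout IL-4, 5841 to 7072 CPM in wild-type IL-4, 2163 to 2748 CPM in knockout basal and 799 to 1318 CPM in wild-type basal libraries. B cell markers summed to 1113 to 1189, 1023 to 1139, 2435 to 2863 and 701 to 858 CPM in the same order of groups. A large part of the IL-4 sums of the small macrophage list was 1 gene, Retnla. Its levels were 5280 to 7820 CPM in knockout IL-4 and 2740 to 3950 CPM in wild-type IL-4 libraries. For knockout against wild type after IL-4, 11 of the 17 tested genes of that list were negative and 6 positive (median log2 -0.13). A change in the number of cells of a type and a change in RNA per cell cannot be told apart in these libraries.

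Promoter sequence is shown for the members that carry the core of the antioxidant response element and for the 2 members called higher after IL-4 in wild-type mice. Windows of 300 bases, 250 before and 50 after an annotated start, were available for 33 of the 38 genes from RefSeq (GRCm38.p6). The core TGACNNNGC was searched on both strands and found in 7 of these 33 genes (21.2%), against 14% of all 27025 genes with a window. The 6 matches before a start, which for Txnrd1 is the second of 3 annotated starts, are printed in the orientation of the motif with 10 bases on either side, and capitals mark the core.
Gclm: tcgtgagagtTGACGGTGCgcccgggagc
Mgst1: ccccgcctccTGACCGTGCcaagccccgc
Txnrd1: cgtgtcagaaTGACAAAGCaaaaatccag
Prdx1: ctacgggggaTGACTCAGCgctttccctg
Sod1: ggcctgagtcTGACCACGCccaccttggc
Nfe2l2: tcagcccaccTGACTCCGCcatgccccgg
These cores lie at chr3:122245423-122245431, chr6:138140471-138140479, chr10:82859114-82859122, chr4:116685466-116685474, chr16:90220706-90220714 and chr2:75704895-75704903, on the strand opposite to the gene in each case but Nfe2l2. Read in the direction of the gene, their first bases lie at -134, -56, -92, -133, -56 and -240 from the start. For all but Nfe2l2 that base is the last capital printed above. The Prdx1 core overlaps TGANTCA, the AP-1 type motif that 7.81% of all windows hold. The seventh match, in Srxn1, lies after the start. The STAT6 type palindrome with a spacer of 4 bases, which reads the same on both strands, was found in 2 of the 33 genes (6.06%), Gstm1 and Glrx2, against 8.01% of all genes. Neither motif was in the windows of Gpx3 and Gsto1, the members called higher after IL-4 in wild-type mice. The part of their windows before the first GENCODE exon that reaches into it is given on the plus strand, as is that of Prdx1, with the core in capitals. For Gpx3 the window belongs to the RefSeq start, so this stretch lies inside the gene as GENCODE places it, in the first intron of a transcript that starts further upstream.
Gpx3, chr11:54902604-54902771: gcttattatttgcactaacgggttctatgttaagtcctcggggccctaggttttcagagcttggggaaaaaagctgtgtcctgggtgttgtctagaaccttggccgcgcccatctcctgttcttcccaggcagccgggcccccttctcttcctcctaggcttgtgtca
Gsto1, chr19:47854723-47854969: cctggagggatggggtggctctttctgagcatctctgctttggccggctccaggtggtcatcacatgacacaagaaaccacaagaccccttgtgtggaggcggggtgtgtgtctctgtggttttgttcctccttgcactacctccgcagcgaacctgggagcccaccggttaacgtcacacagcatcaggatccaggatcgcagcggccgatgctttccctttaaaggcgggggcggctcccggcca
Prdx1, chr4:116685349-116685543: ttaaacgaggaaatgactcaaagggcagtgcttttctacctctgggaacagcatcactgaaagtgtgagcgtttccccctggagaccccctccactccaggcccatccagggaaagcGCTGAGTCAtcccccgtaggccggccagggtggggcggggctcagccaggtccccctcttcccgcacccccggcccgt

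One model of the 4 group means gave 6 comparisons. The genotypes were compared within each treatment, and the treatments within each genotype and over the average of both. The sixth, the interaction, subtracts the wild-type response to IL-4 from the knockout response. Called differences between the genotypes were few among these genes, as they were among all genes. After IL-4 none of the 34 tested members passed, against 0.827% of all 11614 genes tested (0.353% higher and 0.474% lower), and the smallest adjusted p was 0.0895 (Gpx3). At an unadjusted p under 0.05 there were 9 members, 8 lower and 1 higher in knockout, against 14.4% of all genes, and DESeq2 called 3, Gpx3 and Prdx6 lower and Nfe2l2 higher. Shares of all genes called, here and below, come from edgeR. None is given for DESeq2, so its counts of members have no background to be set against. Under basal conditions 1 member, Sod1, was called lower and none higher, against 4.14% of all genes (2.61% higher and 1.53% lower), and that call rests on 1 library. At an unadjusted p under 0.05 there were 8 lower and 1 higher, against 17.7% of all genes, and DESeq2 called 3, all lower: Sod1, Prdx5 and Txn1.

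Most members nevertheless had a negative estimate in knockout cells. After IL-4 this held for 26 of 34, with a median log2 difference of -0.20 against 0.02 for all genes, and 26 of 34 were negative under each of 3 scalings. The median lay between -0.32 and -0.12 when any 1 library was left out. In 9 of 34 members (26.5%) every knockout IL-4 library lay below every wild-type IL-4 library, against 10.7% of all genes, and in 0 did every one lie above, against 9.57%. These 9 were Gpx3, Gsto1, Txn1, Prdx1, Prdx2, Prdx5, Prdx6, Glrx5 and Sod2. Under basal conditions 25 of 34 were negative (median -0.20, against -0.02 for all genes). That count was 20 of 34 when libraries were scaled by their totals alone, under which all genes had a median of 0.13 and the members one of -0.05. Every knockout basal library lay below every wild-type basal library in 14 of 34 members (41.2%, against 24.5% of all genes) and above in 4 (11.8%, against 23.7%). The lean was not particular to the members. Of 103 tested genes in other lists of the pathway, given below, 67 were negative and 36 positive after IL-4 (median -0.17). Under basal conditions 57 of them were negative and 46 positive (median -0.11). Members share libraries and are not independent, so these counts describe the samples and carry no test.

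**Figure D1:**
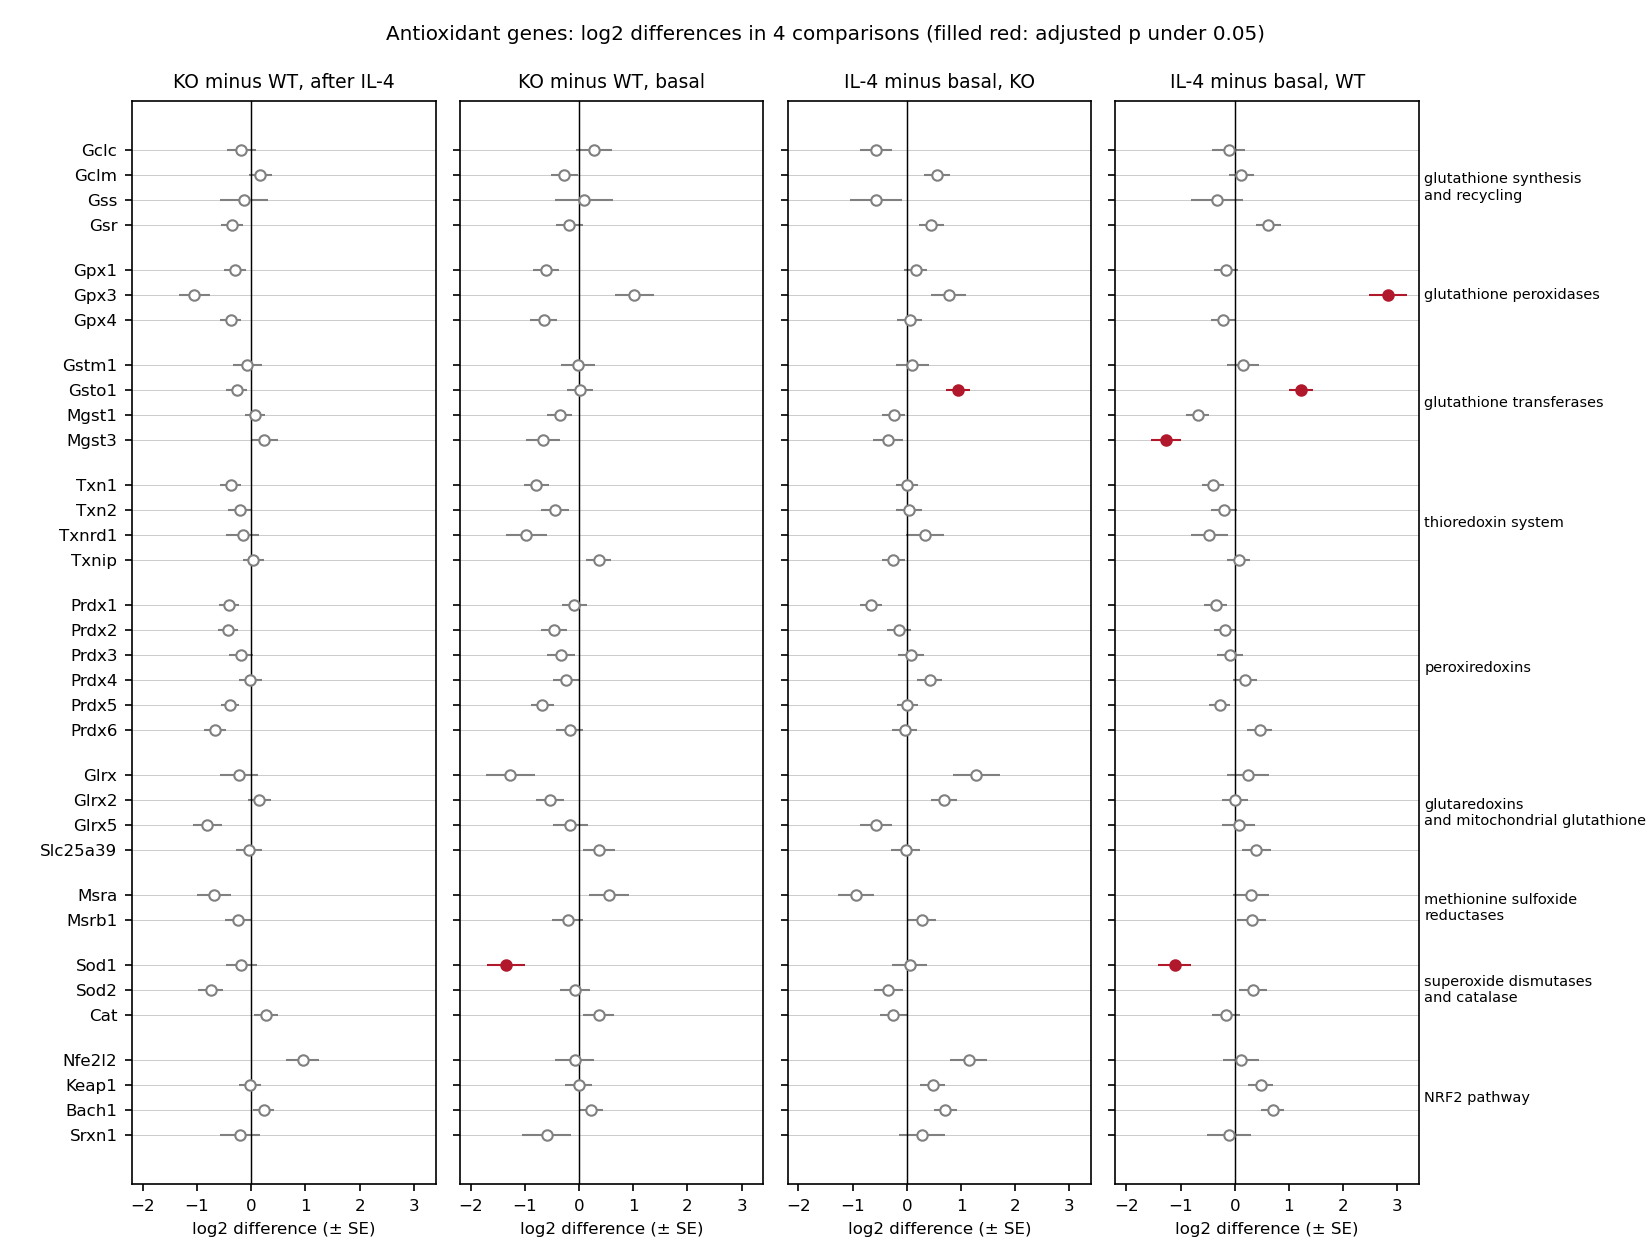
Log2 differences (x axis, ± SE) of the 34 tested antioxidant genes (rows, grouped by role) in 4 comparisons, with filled red points for an adjusted p under 0.05. The 2 genotype panels hold 1 filled point, Sod1 at -1.34 under basal conditions, while Gpx3 at 2.83 stands furthest to the right in the IL-4 panel of wild-type cells.

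More members were called for IL-4 in wild-type cells and in the average than for genotype, as was the case among all genes. In knockout cells 1 rose (Gsto1) and none fell, against 7.6% of all genes called in either direction (4.09% higher and 3.51% lower), while 7 members were higher and 2 lower by the unadjusted p (under 0.05), against 22.7% of all genes. DESeq2 called 4 higher and 1 lower in that comparison. In wild-type cells 2 members rose (Gpx3, Gsto1) and 2 fell (Mgst3, Sod1), against 6.06% of all genes (3.26% higher and 2.8% lower). The Sod1 call rests on 1 library. By the unadjusted p (under 0.05) 4 members were higher and 3 lower in wild type, against 21.3% of all genes. DESeq2 also called Bach1 higher and Mgst1 lower there. Averaged over both genotypes, 4 rose (Gpx3, Gsto1, Gsr, Bach1) and 2 fell (Mgst3, Prdx1), against 12.9% of all genes (7.03% higher and 5.82% lower). One member, Gpx3, differed in its IL-4 effect between the genotypes, against 2.81% of all genes (1.02% with a higher effect in knockout and 1.78% with a lower one). The estimates of the IL-4 effect had the same sign in both genotypes in 19 of 34 members (55.9%), against 59.2% of all genes. All 6 IL-4 libraries lay above all 4 basal libraries in 4 of 34 members (11.8%, against 4.88% of all genes) and below them in 3 (8.82%, against 3.89%).

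Markers of other cells moved with IL-4 as well. Of 17 tested markers of small macrophages, monocytes and dendritic cells, 6 rose and 2 fell in knockout and 10 rose and none fell in wild type. That list includes Retnla and Mgl2, which IL-4 is known to induce in mouse macrophages, and none of its 18 genes was at 0 throughout a group. Of 16 B cell markers, none rose and 15 fell in knockout, while 6 rose and none fell in wild type. Of 9 tested markers of mast cells and basophils, none rose in either genotype, 7 fell in knockout and 3 in wild type. Mast cell and basophil markers summed to 36.3 to 44.7 CPM in knockout IL-4, 38.6 to 50.6 CPM in wild-type IL-4, 188 to 318 CPM in knockout basal and 83.8 to 132 CPM in wild-type basal libraries. Most of each sum was Hdc, except in knockout basal libraries. Hdc stood at 34 to 42.6, 34.5 to 46.4, 29.2 to 54.3 and 54.1 to 105 CPM in the same order of groups. The sums therefore understate the differences in most of these markers. Over the 9 tested, the median log2 was -4.65 for IL-4 in the average over genotypes. For knockout against wild type under basal conditions it was 2.53, with 4 higher and none lower. Ms4a2 and Mrgprb2 were at 0 in both IL-4 groups, Mcpt4 and Fcer1a in knockout IL-4 and Mcpt8 in both basal groups. The part of these lists in the IL-4 calls that follow was not tested.

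**Figure D2:**
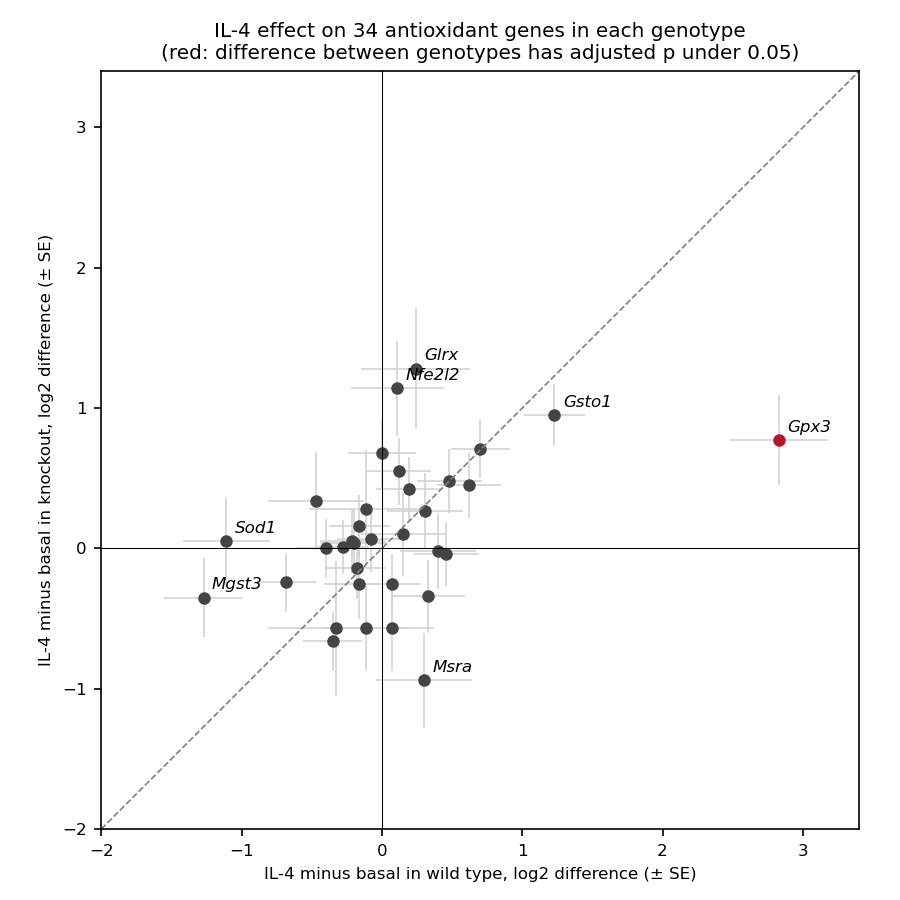
IL-4 effect in wild-type cells (x axis, log2 difference ± SE) against that in knockout cells (y axis, log2 difference ± SE) for the 34 tested members, with a dashed line of equal effect. Gpx3, in red, lies at 0.77 in knockout and 2.83 in wild type, and Gsto1, at 0.95 in knockout and 1.23 in wild type, lies near the line.

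Glutathione synthesis and recycling involve 4 of these genes. Gclc and Gclm encode the catalytic and modifier subunits of glutamate-cysteine ligase, the rate-limiting step of synthesis, Gss encodes the synthetase that adds glycine, and Gsr encodes the reductase that returns oxidised glutathione to its reduced form with NADPH. None of the 4 passed in either comparison of genotypes, with log2 differences of -0.35 to 0.17 after IL-4 and -0.27 to 0.27 under basal conditions. Gclc averaged 38.1 ± 14.6 CPM in knockout IL-4 and 43.1 ± 4.83 CPM in wild-type IL-4 libraries (SD, n = 3 each). Gclm averaged 83.5 ± 16.0 and 74.4 ± 6.12 CPM in the same groups. Gss, a gene with few reads here, averaged 3.43 ± 0.91 and 3.79 ± 1.71 CPM. All 3 pairs of means differed by less than the larger of their SDs. Gsr stood at 240, 265 and 386 CPM in knockout IL-4 libraries and at 407, 344 and 385 CPM in wild-type IL-4 libraries. It stood at 205 and 230 CPM in knockout basal libraries and at 264 and 228 CPM in wild-type basal libraries. Every IL-4 library lay above both basal libraries of its own genotype, while 1 knockout IL-4 library lay below 1 wild-type basal library. Averaged over genotypes Gsr was 1.45-fold higher after IL-4 (log2 0.54 ± 0.16, adjusted p = 0.0399), a call kept without knockout IL-4 replicate 1 or 2 and lost without any other single library, when the adjusted p reached 0.142. Within a genotype Gsr did not pass, at log2 0.45 ± 0.23 in knockout (adjusted p = 0.254) and 0.62 ± 0.23 in wild type (adjusted p = 0.125).

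The glutathione peroxidases include Gpx3, which had the largest IL-4 estimate of the 34 members in wild-type cells. Gpx3 (ENSMUSG00000018339, chromosome 11, 54902453 to 54910377, mm10, as for the gene positions that follow) encodes the secreted, plasma form of glutathione peroxidase. It stood at 11.1, 19.6 and 12.0 CPM in knockout IL-4 libraries and at 34.2, 25.2 and 29.0 CPM in wild-type IL-4 libraries. It stood at 6.92 and 9.75 CPM in knockout basal libraries and at 3.87 and 4.37 CPM in wild-type basal libraries. The 4 groups did not overlap: wild-type IL-4 was the highest, followed by knockout IL-4 and knockout basal, with wild-type basal the lowest. In knockout cells the estimate for IL-4 was 1.7-fold (log2 0.77 ± 0.32, adjusted p = 0.165) and did not pass. In wild-type cells Gpx3 rose 7.13-fold (log2 2.83 ± 0.35, adjusted p = 3.71e-04), a call kept without any 1 library.

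The difference between the 2 IL-4 effects on Gpx3 was log2 -2.06 ± 0.46 (adjusted p = 0.0212). It passed in 6 of the 10 fits that left out 1 library. The adjusted p was 0.0682 when wild-type IL-4 replicate 1 was left out, 0.117 for knockout basal replicate 2, and 0.0689 and 0.0598 for wild-type basal replicates 1 and 2. The estimate ranged from -2.37 to -1.79 in these fits. The genotype differences behind it had opposite signs and neither passed: log2 -1.05 ± 0.28 after IL-4 (adjusted p = 0.0895) and 1.02 ± 0.36 under basal conditions (adjusted p = 0.14). Markers of other cells moved in the same comparisons. Of the 17 tested genes of small macrophages, monocytes and dendritic cells, 6 had a lower IL-4 effect in knockout and none a higher one, and 7 were higher and none lower in knockout under basal conditions. Of 16 B cell markers, 14 had a lower IL-4 effect in knockout and none a higher one (median log2 -3.25), and 15 were higher and none lower in knockout under basal conditions. Of 9 tested markers of mast cells and basophils, 2 had a lower IL-4 effect in knockout and none a higher one (median log2 -3.44). Under basal conditions 4 of these were higher and none lower in knockout. Of 19 large peritoneal macrophage markers, 3 had a lower IL-4 effect in knockout and none a higher one (median log2 0.41). Of 7 tested neutrophil markers, 3 had a lower IL-4 effect in knockout and none a higher one (median log2 -2.60), and 3 were lower and none higher in knockout after IL-4. The 12 neutrophil markers summed to 134 to 189 CPM in knockout IL-4, 202 to 239 CPM in wild-type IL-4, 181 to 261 CPM in knockout basal and 255 to 358 CPM in wild-type basal libraries. Much of each sum was Csf3r, at 104 to 137 CPM in wild-type IL-4 and 241 to 320 CPM in wild-type basal libraries. The sums therefore do not follow most of these markers: with IL-4 in wild type 6 of the 7 tested had a positive estimate and 1 a negative one. Among the neutrophil markers Ngp, Camp and Ltf were at 0 in knockout IL-4, Ly6g in wild-type IL-4, all 4 of these in both basal groups and Mpo in knockout basal libraries. The part of these lists in the Gpx3 result was not tested.

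Gpx1 and Gpx4 encode the cytosolic peroxidase and the one that reduces lipid peroxides in membranes, and neither passed in any comparison. Gpx1 stood at 600 to 921 CPM in knockout IL-4 and 798 to 1091 CPM in wild-type IL-4 libraries. It stood at 657 to 671 CPM in knockout basal and 996 to 1034 CPM in wild-type basal libraries. Gpx4 had log2 differences of -0.38 ± 0.20 after IL-4 (adjusted p = 0.405) and -0.65 ± 0.25 under basal conditions (adjusted p = 0.175). Of the 50-base stretches of the Gpx4 transcripts, 34.7% also occur in other annotated genes, mainly the pseudogene Gpx4-ps2, so its counts are uncertain.

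Of the 6 glutathione transferases, 4 were tested. Gsto1 (ENSMUSG00000025068, chromosome 19, 47854970 to 47864790) encodes an omega class transferase that also reduces dehydroascorbate. It stood at 74.0, 86 and 72.8 CPM in knockout IL-4 libraries and at 97.3, 95.2 and 87.8 CPM in wild-type IL-4 libraries. It stood at 39.6 and 40.6 CPM in knockout basal libraries and at 38.1 and 41.5 CPM in wild-type basal libraries. Every IL-4 library lay far above every basal library, and the basal genotypes overlapped. Gsto1 rose 1.94-fold in knockout (log2 0.95 ± 0.22, adjusted p = 0.0158) and 2.35-fold in wild type (log2 1.23 ± 0.22, adjusted p = 0.00463). The wild-type call was kept without any 1 library, and the knockout call was lost without knockout basal replicate 1 (adjusted p = 0.129) or 2 (adjusted p = 0.126). The difference between the 2 effects was log2 -0.28 ± 0.30 and did not pass (adjusted p = 0.741).

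Mgst3 (ENSMUSG00000026688, chromosome 1, 167371966 to 167393841) encodes a microsomal transferase that can also form leukotriene C4. It stood at 15.7, 11.7 and 12.2 CPM in knockout IL-4 libraries and at 11.6, 8.58 and 13.5 CPM in wild-type IL-4 libraries. It stood at 17.2 and 16.5 CPM in knockout basal libraries and at 25.3 and 28.5 CPM in wild-type basal libraries. The wild-type basal libraries were above all others, and in both genotypes every IL-4 library lay below every basal one. With IL-4 Mgst3 did not pass in knockout (log2 -0.35 ± 0.28, adjusted p = 0.489) and fell 2.41-fold in wild type (log2 -1.27 ± 0.28, adjusted p = 0.0134). The difference between these effects did not pass (log2 0.91 ± 0.40, adjusted p = 0.283). The wild-type call was lost when replicate 2 of the wild-type IL-4 group (adjusted p = 0.061) or of the wild-type basal group (adjusted p = 0.0921) was left out, whereas the average over genotypes (log2 -0.81 ± 0.20, adjusted p = 0.0135) passed without any 1 library.

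Mgst1, another microsomal transferase, had estimates of the same sign (log2 -0.24 ± 0.21 in knockout, adjusted p = 0.537, and -0.68 ± 0.21 in wild type, adjusted p = 0.0706) and did not pass. DESeq2 called Mgst1 lower with IL-4 in wild type (adjusted p = 0.0266) and in the average (adjusted p = 0.0269). Gstm1, of the mu class, ranged from 13.4 to 22.1 CPM over all libraries, with log2 estimates of -0.07 to 0.15, and 18.9% of its 50-base stretches occur in other genes such as Gstm3. Gstp1, of the pi class, had 0 counts in every library, which allows up to 0.199 to 0.324 CPM a library (3 counts). Of its 50-base stretches 33.7% also occur in Gstp2 or the pseudogene Gstp-ps, so its counts are uncertain. Gsta4, of the alpha class, had 0, 0 and 0 counts in knockout IL-4, 0, 1 and 0 in wild-type IL-4, 0 and 5 in knockout basal and 5 and 0 in wild-type basal libraries, too few to test.

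**Figure D3:**
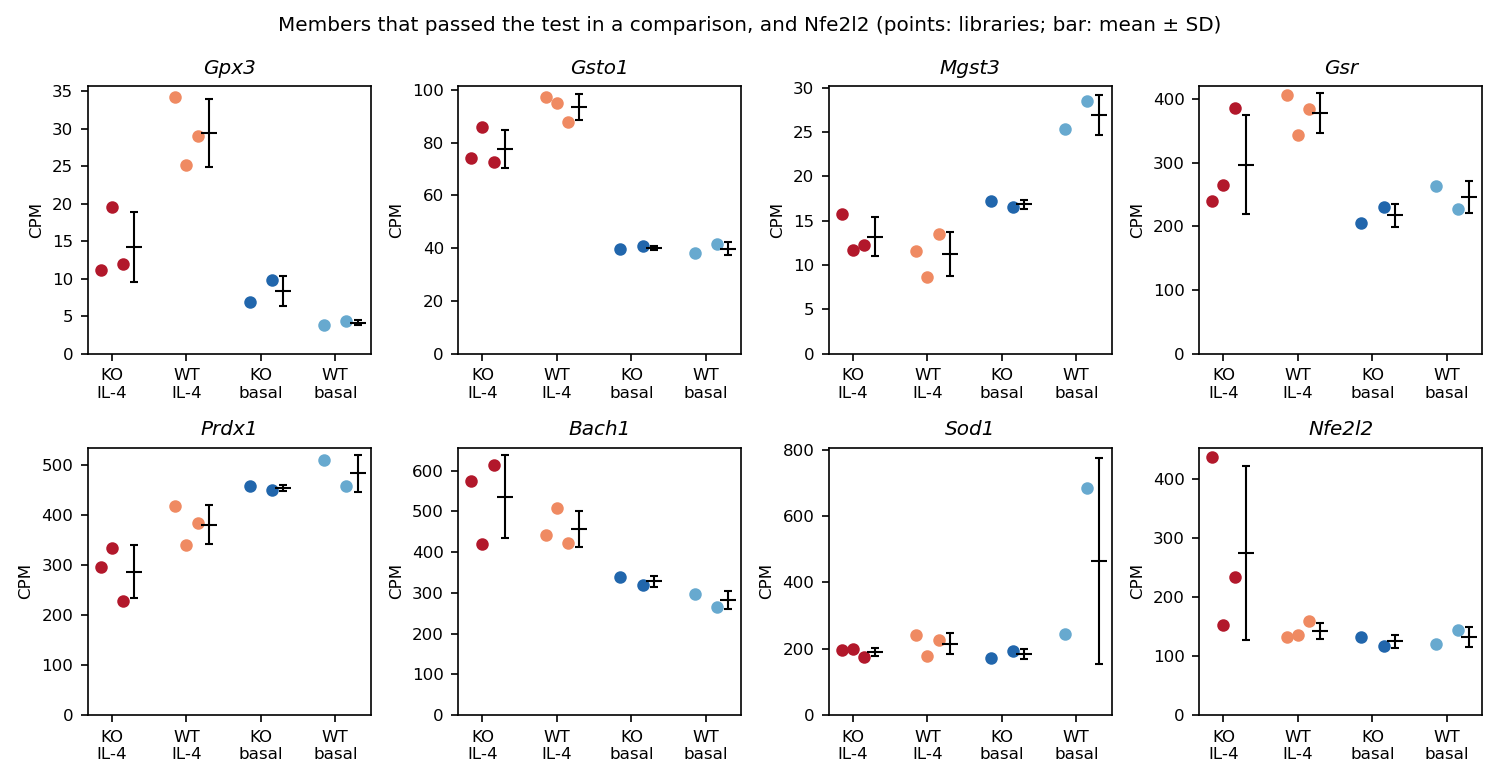
CPM by library (y axis, from 0) of the 7 members that passed in at least 1 comparison and of Nfe2l2, in the 4 groups along the x axis, with bars for mean ± SD. Gsto1 stands at 72.8 to 97.3 CPM in all IL-4 libraries and at 38.1 to 41.5 CPM in all basal ones, while Sod1 and Nfe2l2 each owe their widest spread to a single library, at 685 and 438 CPM.

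The thioredoxin system showed no called change. Txn1 and Txn2 encode the cytosolic and mitochondrial thioredoxins, Txnrd1 and Txnrd2 their selenium-dependent reductases, and Txnip a protein that binds and inhibits thioredoxin. Txn1 stood at 318, 305 and 251 CPM in knockout IL-4 libraries and at 438, 338 and 364 CPM in wild-type IL-4 libraries. It stood at 304 and 278 CPM in knockout basal libraries and at 442 and 562 CPM in wild-type basal libraries. In both treatments every knockout library lay below every wild-type library, with log2 differences of -0.38 ± 0.19 after IL-4 (adjusted p = 0.363) and -0.79 ± 0.23 under basal conditions (adjusted p = 0.069). DESeq2 called the basal difference. Txn2 stood at 38.7, 45.1 and 37.3 CPM in knockout IL-4 libraries and at 55.7, 41.3 and 42.8 CPM in wild-type IL-4 libraries. It stood at 40.3 and 38.2 CPM in knockout basal libraries and at 47.6 and 59.5 CPM in wild-type basal libraries. Its groups overlapped after IL-4 (log2 -0.21 ± 0.21, adjusted p = 0.708) and not under basal conditions (log2 -0.45 ± 0.26, adjusted p = 0.407). Txnrd1 had its highest value, 60.0 CPM, in wild-type basal replicate 2 and ranged from 18.0 to 33.9 CPM elsewhere, and Txnip ranged from 805 to 1336 CPM with no call. Of the exonic bases of Txnip, 19.4% are also covered by Gm15441 on the other strand. Txnrd2, like Gstp1, had 0 counts in every library, and none of its 50-base stretches occurs in another gene.

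The peroxiredoxins, the thiol peroxidases that thioredoxin recharges, all had a negative estimate in knockout in both treatments, and none of the 6 passed. Their median log2 difference was -0.40 after IL-4 and -0.29 in the basal libraries. With libraries scaled by their totals alone, 6 of 6 were still negative after IL-4 and 5 of 6 under basal conditions, where Prdx1 turned positive. Prdx1, Prdx2, Prdx5 and Prdx6 each had every knockout IL-4 library below every wild-type IL-4 library.

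Prdx6, a form that works with glutathione rather than thioredoxin, stood at 97.7, 102 and 83.7 CPM in knockout IL-4 libraries and at 160, 132 and 158 CPM in wild-type IL-4 libraries. It stood at 88.5 and 106 CPM in knockout basal libraries and at 125 and 93.5 CPM in wild-type basal libraries. The IL-4 groups were clearly apart and the basal groups overlapped (log2 -0.67 ± 0.20, adjusted p = 0.143 after IL-4, and -0.17 ± 0.25, adjusted p = 0.793 under basal conditions). The difference between these, log2 -0.50 ± 0.32, did not pass (adjusted p = 0.497). Prdx5, present in mitochondria, peroxisomes and cytosol, stood at 323 to 364 CPM in knockout IL-4 and 386 to 498 CPM in wild-type IL-4 libraries. It stood at 337 to 358 CPM in knockout basal and 542 to 571 CPM in wild-type basal libraries. Its groups overlapped in neither treatment (log2 -0.39 ± 0.17, adjusted p = 0.317, and -0.68 ± 0.21, adjusted p = 0.0914). Prdx2 behaved alike, at log2 -0.43 ± 0.19 (adjusted p = 0.325) and -0.47 ± 0.24 (adjusted p = 0.316). Exons of Prdx5 and Prdx2 are overlapped by Trmt112 and by Junb and Rnaseh2a on the other strand, over 19.1% and 11.5% of their bases, and the strand setting of the counting is not given in the sources used here.

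Prdx1 (ENSMUSG00000028691, chromosome 4, 116685544 to 116700822), a cytosolic form and a known NRF2 target, stood at 297, 334 and 229 CPM in knockout IL-4 libraries and at 418, 340 and 385 CPM in wild-type IL-4 libraries. It stood at 458 and 450 CPM in knockout basal libraries and at 510 and 458 CPM in wild-type basal libraries. Every IL-4 library lay below every basal one. The average over genotypes was 1.42-fold lower after IL-4 (log2 -0.51 ± 0.15, adjusted p = 0.0332), a call kept without knockout IL-4 replicate 1 or 2 or wild-type IL-4 replicate 1 and lost without any other single library, when the adjusted p reached 0.104. Within a genotype it did not pass (log2 -0.66 ± 0.21, adjusted p = 0.0618 in knockout, and -0.35 ± 0.21, adjusted p = 0.364 in wild type). Of its 50-base stretches 8.29% occur in other genes. Prdx3, of mitochondria, and Prdx4, of the endoplasmic reticulum, had log2 estimates between -0.34 and 0.42 over the 6 comparisons.

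**Figure D4:**
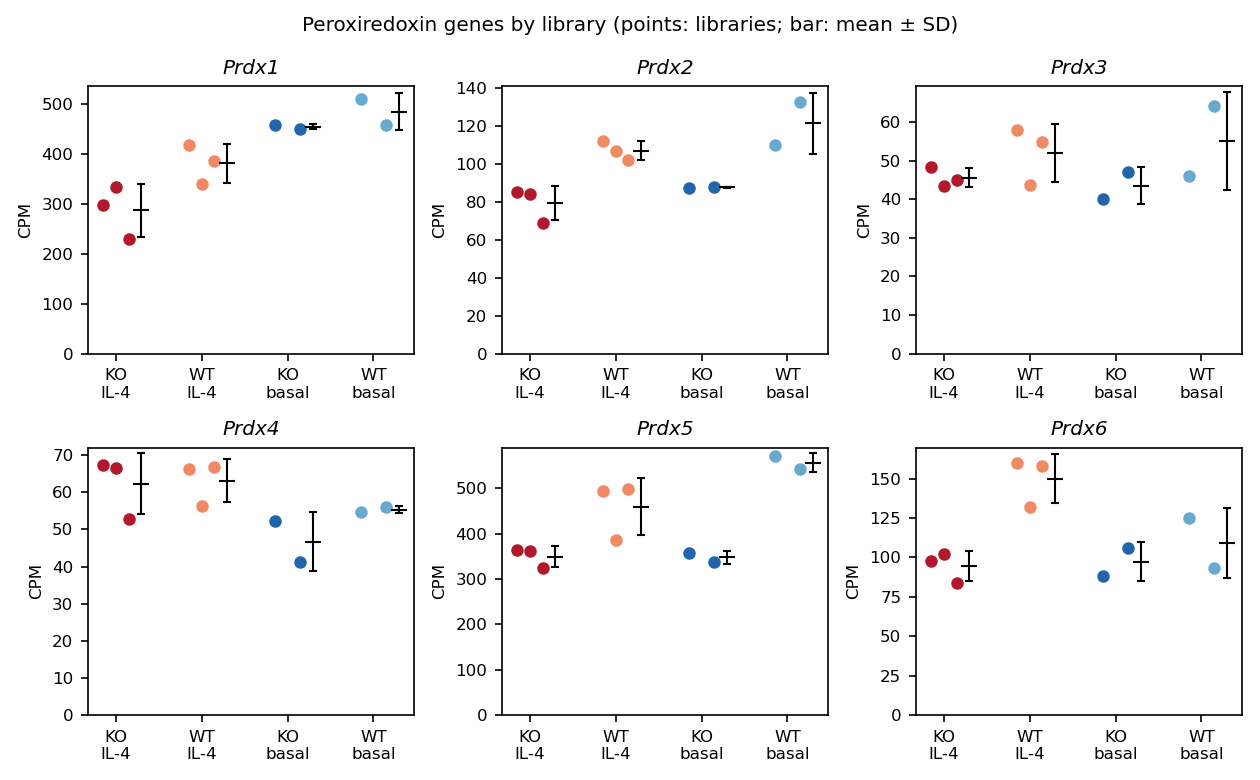
CPM by library (y axis, from 0) of the 6 peroxiredoxin genes in the 4 groups along the x axis, with bars for mean ± SD. In Prdx1, Prdx2, Prdx5 and Prdx6 the 3 knockout IL-4 libraries lie below the 3 wild-type IL-4 libraries, and for Prdx6 these are 83.7 to 102 and 132 to 160 CPM.

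Glutaredoxins reduce mixed disulfides between glutathione and proteins, and Slc25a39 encodes the carrier that brings glutathione into mitochondria. None of these 4 genes passed. Glrx5, which serves iron-sulfur cluster assembly in mitochondria, stood at 11.7, 21.0 and 12.3 CPM in knockout IL-4 libraries and at 32.7, 21.7 and 24.4 CPM in wild-type IL-4 libraries. It stood at 19.9 and 24.8 CPM in knockout basal libraries and at 26.5 and 23.6 CPM in wild-type basal libraries. The groups were apart by a narrow gap after IL-4 (log2 -0.81 ± 0.27, adjusted p = 0.193) and overlapped under basal conditions. Glrx2, another mitochondrial form, stood at 65.0, 82.4 and 57.9 CPM in knockout IL-4 libraries and at 60.4, 60.6 and 63.6 CPM in wild-type IL-4 libraries. It stood at 42.0 and 43.3 CPM in knockout basal libraries and at 52.3 and 70.4 CPM in wild-type basal libraries. Its estimates were log2 0.15 ± 0.21 after IL-4 (adjusted p = 0.791) and -0.53 ± 0.26 under basal conditions (adjusted p = 0.313).

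Glrx, the cytosolic glutaredoxin, was the glutaredoxin with differences past 2-fold. It stood at 5.89, 6.68 and 4.41 CPM in knockout IL-4 and 6.77, 5.25 and 7.82 CPM in wild-type IL-4 libraries. It stood at 1.84 and 2.77 CPM in knockout basal and 6.14 and 5.05 CPM in wild-type basal libraries. The knockout basal libraries were the lowest of the 10. No comparison passed: log2 -1.27 ± 0.45 for knockout against wild type under basal conditions (adjusted p = 0.141), 1.28 ± 0.43 for IL-4 in knockout (adjusted p = 0.0809) and 1.05 ± 0.57 for the difference between the IL-4 effects (adjusted p = 0.412). Slc25a39 stood at 30.1 to 39.5 CPM in knockout IL-4 and 29.8 to 38 CPM in wild-type IL-4 libraries, and its groups overlapped in every comparison.

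Methionine sulfoxide reductases repair oxidised methionine with electrons from thioredoxin. Msra stood at 9.75, 6.68 and 8.25 CPM in knockout IL-4 libraries and at 17.0, 13.8 and 8.75 CPM in wild-type IL-4 libraries. It stood at 17.6 and 14.0 CPM in knockout basal libraries and at 12.9 and 8.56 CPM in wild-type basal libraries. Knockout was the lower genotype by its mean after IL-4 (log2 -0.69 ± 0.31, adjusted p = 0.322) and the higher under basal conditions (log2 0.55 ± 0.37, adjusted p = 0.486). The difference between the IL-4 effects, log2 -1.24 ± 0.48, was past 2-fold and did not pass (adjusted p = 0.219). Msrb1, a selenoprotein, stood at 67.3, 106 and 75.2 CPM in knockout IL-4 libraries and at 125, 83.3 and 86.5 CPM in wild-type IL-4 libraries. It stood at 77.4 and 59.7 CPM in knockout basal libraries and at 87.3 and 71.6 CPM in wild-type basal libraries, and its groups overlapped throughout.

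Sod1 and Sod2 encode the cytosolic and the mitochondrial superoxide dismutase, and Cat encodes catalase of peroxisomes. Sod1 (ENSMUSG00000022982, chromosome 16, 90220754 to 90226329) stood at 197, 199 and 176 CPM in knockout IL-4 libraries and at 241, 179 and 227 CPM in wild-type IL-4 libraries. It stood at 173 and 194 CPM in knockout basal libraries and at 245 and 685 CPM in wild-type basal libraries. Wild-type basal replicate 2 stood far above the other 9 libraries. The calls that involve the wild-type basal group, knockout against wild type (log2 -1.34 ± 0.35, adjusted p = 0.0462) and IL-4 in wild type (log2 -1.11 ± 0.31, adjusted p = 0.0495), rest on that library and were also lost without any other single library except wild-type basal replicate 1. Without replicate 2 they were log2 -0.42 (adjusted p = 0.615) and -0.19 (adjusted p = 0.801). The difference between the IL-4 effects was past 2-fold and did not pass (log2 1.16 ± 0.45, adjusted p = 0.219). Sod2 had every knockout IL-4 library (36.3 to 51.7 CPM) below every wild-type IL-4 library (67.8 to 97.9 CPM) and did not pass (log2 -0.75 ± 0.23, adjusted p = 0.148). Its basal values were 55.9 to 61.8 CPM in knockout and 53.5 to 70.6 CPM in wild type, and 21% of its 50-base stretches occur in other genes. Cat ranged from 31.6 to 56.8 CPM over all libraries with no call.

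Of the NRF2 pathway, Bach1 (ENSMUSG00000025612, chromosome 16, 87698945 to 87733346), the haem-sensitive repressor of NRF2 targets, was called. It stood at 574, 420 and 613 CPM in knockout IL-4 libraries and at 442, 507 and 422 CPM in wild-type IL-4 libraries. It stood at 338 and 318 CPM in knockout basal libraries and at 297 and 266 CPM in wild-type basal libraries. Every IL-4 library lay above every basal library. Averaged over genotypes Bach1 was 1.63-fold higher after IL-4 (log2 0.70 ± 0.15, adjusted p = 0.00669), a call kept without any 1 library. The 2 IL-4 effects were almost equal, log2 0.71 ± 0.21 in knockout (adjusted p = 0.0552) and 0.70 ± 0.21 in wild type (adjusted p = 0.0661), with a difference of 0.01 ± 0.30 (adjusted p = 0.996).

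Nfe2l2, the gene of NRF2 itself, stood at 438, 152 and 235 CPM in knockout IL-4 libraries and at 133, 136 and 159 CPM in wild-type IL-4 libraries. It stood at 133 and 117 CPM in knockout basal libraries and at 120 and 144 CPM in wild-type basal libraries. The knockout IL-4 libraries were spread widely and replicate 2 overlapped with wild type. The difference with IL-4 in knockout, past 2-fold (log2 1.14 ± 0.34), did not pass (adjusted p = 0.0559), nor did knockout against wild type after IL-4 (log2 0.95 ± 0.30, adjusted p = 0.158) or the difference between the IL-4 effects (log2 1.03 ± 0.47, adjusted p = 0.307). Over the fits without 1 library the estimate after IL-4 ranged from 0.43 to 1.24. DESeq2 called Nfe2l2 higher in both the IL-4 comparison of knockout cells and the genotype comparison after IL-4. Keap1, which sends NRF2 for degradation, had every IL-4 library (130 to 184 CPM) above every basal library (99.4 to 118 CPM) and did not pass (average log2 0.48 ± 0.16, adjusted p = 0.065). DESeq2 called Keap1 higher in that average (adjusted p = 0.0269).

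The classical NRF2 targets gave no called rise in knockout. Srxn1, which repairs overoxidised peroxiredoxins, stood at 3.44 to 7.41 CPM in knockout IL-4 and 4.72 to 8.71 CPM in wild-type IL-4 libraries (log2 -0.20 ± 0.37, adjusted p = 0.854). Nqo1, a quinone reductase, had 4, 5 and 3 counts in knockout IL-4 libraries, 0, 0 and 0 in wild-type IL-4, 7 and 3 in knockout basal and 5 and 0 in wild-type basal libraries, which was under the filter for testing. The target members Gclc, Gclm, Txnrd1, Prdx1 and Srxn1 had log2 estimates of -0.41 to 0.17 in knockout after IL-4.

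Lists of other genes of the pathway gave similar counts. Of 115 further genes in 7 lists, 103 were tested, and in knockout after IL-4 none was called higher and 1 lower, Ptges, the glutathione-dependent prostaglandin E synthase. It stood at 4.41 to 5.22 CPM in knockout IL-4 and 11.3 to 16.1 CPM in wild-type IL-4 libraries (log2 -1.56 ± 0.29, adjusted p = 0.0189), a call lost without knockout IL-4 replicate 3 or wild-type IL-4 replicate 1 or 2 (adjusted p up to 0.115). Under basal conditions 1 was higher and none lower: Bach2, a relative of Bach1 that B cells also express, at 69.5 to 71.3 CPM in knockout and 28.0 to 34.9 CPM in wild-type libraries (log2 1.16 ± 0.27, adjusted p = 0.0228). The Bach2 call was lost without either knockout library or wild-type basal replicate 2 (adjusted p up to 0.175). B cell markers differed in the same comparison, with 15 of 16 tested markers higher in knockout and the summed levels given above, none of them at 0 throughout a group, and their part in the Bach2 result was not tested. Of 21 tested further NRF2 targets, none was called in either genotype comparison, with medians of log2 -0.26 after IL-4 and 0.06 under basal conditions, against 0.02 and -0.02 for all genes.

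With IL-4, Slc7a11, the cystine transporter that feeds glutathione synthesis and a known NRF2 target, was called higher in both genotypes over very few basal reads (adjusted p = 0.0238 in knockout and 0.0441 in wild type). The knockout call was lost without either knockout basal library (adjusted p up to 0.147). The wild-type call was kept in 4 of the 10 fits without 1 library and lost without any wild-type IL-4 library, wild-type basal replicate 1 or knockout IL-4 replicate 2 or 3 (adjusted p up to 0.186). Its counts were 19, 36 and 22 in knockout IL-4, 41, 31 and 28 in wild-type IL-4, 0 and 1 in knockout basal and 0 and 4 in wild-type basal libraries. All 6 IL-4 libraries lay above all 4 basal libraries (average log2 4.55 ± 0.85, adjusted p = 0.00266, passing without any 1 library), and the size of this change is poorly fixed because the basal counts are close to 0. Gpx7, a peroxidase of the endoplasmic reticulum, rose in knockout to 10.5 to 11.8 CPM in IL-4 libraries, against 1.95 to 3.85 CPM in basal ones (log2 1.91 ± 0.41, adjusted p = 0.00973, and 0.127 without knockout basal replicate 1). Me2, a mitochondrial malic enzyme, rose in wild type to 48.8 to 50.3 CPM in IL-4 libraries, against 20.6 to 26.5 CPM in basal ones (log2 1.07 ± 0.25, adjusted p = 0.0198, lost without wild-type basal replicate 2 or any wild-type IL-4 library). Among the falls was Selenom, a selenoprotein of the endoplasmic reticulum. It stood at 3.66 to 4.01 CPM in knockout IL-4 against 10.6 to 11.6 CPM in knockout basal libraries (log2 -1.55 ± 0.31, adjusted p = 0.00653, and 0.0599 without knockout basal replicate 2). In wild type it stood at 5.15 to 8.04 CPM in IL-4 against 19.9 to 25.8 CPM in basal libraries (log2 -1.73 ± 0.30, adjusted p = 0.00345). In the list of selenoproteins and their synthesis, 5 of 18 tested genes fell and none rose in the average over genotypes, against 5.82% of all genes called lower. That count rests on single libraries: it was 1 (Selenom) without knockout basal replicate 1, 2 without wild-type basal replicate 2 and 3 when replicate 2 of the wild-type IL-4 group was left out. Of the other genes named by the same rule, Txnrd3 and Nfe2l1 fell with IL-4 in wild type (log2 -1.63 ± 0.34 and -1.07 ± 0.24) and Txnl4a in knockout (log2 -1.43 ± 0.32), with adjusted p-values of 0.0109, 0.0171 and 0.0137. Without 1 library these reached 0.178 (wild-type basal replicate 2), 0.0786 (wild-type basal replicate 2) and 0.0875 (knockout basal replicate 1).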

How the data were processed

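Polyadenylated RNA of 10 libraries was analysed from the deposited counts per gene. Per the submitters' processing notes, the authors used STAR, HTSeq and mm10. Versions, strand setting and library construction (whole transcripts or 3' ends) are not given in the sources used here, so no levels are compared between genes. The authors' counts were used as deposited and matched by identifier to GENCODE M21. Members and lists were chosen with earlier results of these data known.

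In R 4.3.3, edgeR 4.0.16 gave TMM factors, and its filterByExpr with a count minimum of 10 and a total minimum of 15 kept 11614 genes. A robust quasi-likelihood model of 4 group means had 6 residual degrees of freedom and a common biological coefficient of variation of 28.4%. Tests were two-sided, with Benjamini-Hochberg adjustment over all genes and a threshold of 0.05. CPM use TMM-scaled library sizes. Differences are on the log2 scale, ± SE, and positive where the knockout or the IL-4 group is higher. The procedure was run on simulated counts with planted changes larger than most differences reported here. That check does not show how well smaller differences are found.

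The targeted gene is not reported here. Values in every library are given for members that passed in any comparison and, in role groups without any, for the 2 with the smallest p after IL-4. Members with differences past 2-fold that did not pass are named, as are up to 4 passing genes of the other lists per comparison. Shared sequence was counted as 50-base stretches of GENCODE transcripts. Floors of 3 counts cover counting error only. Alternatives were DESeq2 1.42.0, RLE factors, library totals, no filter, a replicate block and fits without 1 library. When a basal library was left out, the lone sample left is taken to vary as the other groups do. Figures were drawn with matplotlib 3.10.9 under Python 3.11.15.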

Additional observations from a re-analysis of the deposited data

Results flagged for a closer look

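The response of Gpx3 to IL-4 differed between the genotypes by a test of the difference itself, the knockout effect less the wild-type effect being log2 -2.06 ± 0.46 (edgeR's quasi-likelihood test, adjusted p = 0.0212). The effect was 0.77 in knockout and 2.83 in wild type. As given above, the call on their difference was lost in some of the fits that left out 1 library.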

How the results depend on the processing

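The number of called members changed with the tool and the filter, and no called difference of a named member reversed its direction. Some that were not called did when libraries were scaled by their totals: for knockout against wild type under basal conditions Prdx1, Gstm1, Sod2, Keap1 and Nfe2l2 turned positive, and for IL-4 in knockout 19 of 34 members were negative in place of 13. For knockout against wild type after IL-4, where no member was called, DESeq2 called 3 and a fit with no filter on low counts called 2. Under basal conditions the single call became 3 with DESeq2, 3 with no filter, 0 with library totals and 0 with the replicate block. For IL-4 in knockout, 1 call became 5 with DESeq2, 2 with no filter and 2 with library totals (1 in each direction), and the interaction went from 1 to 2 with no filter. DESeq2 added Bach1 and Mgst1 to the calls for IL-4 in wild type, and Keap1 and Mgst1 to those of the average. No share of all genes called is given for these alternatives, so their counts describe the members alone. Leaving out 1 library gave 0 to 2 calls in each comparison of genotypes, 0 to 4 for IL-4 in knockout, 2 to 4 in wild type, 4 to 8 for the average and 0 to 1 for the interaction. For the 13 called values of named genes, such fits kept the call 89 times and lost it 41 times, and the cause was not tested.

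Replicate numbers gave no sign of pairing: deviations of same-numbered libraries from their group means correlated at -0.11 to 0.062, and 0 of 10 libraries correlated best with their own number. In groups of 2 libraries the deviations mirror each other, so this check is weak and cannot exclude pairing. With the replicate block the average over genotypes had 4 calls in place of 6, since Gsr and Prdx1 no longer passed (adjusted p = 0.177 and 0.143). Basal groups of 2 libraries limit what can be detected there, and a difference that did not pass is not shown to be absent.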
